A study of Zea mays with 3 samples.

Results

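Transcripts of 4 genes of photosynthesis and chlorophyll synthesis were followed through the growth of the maize anther: psan1 (GRMZM2G080107, probe A_92_P010347), Ssu1 (GRMZM2G098520, probe A_92_P024266), pcr1 (GRMZM2G084958, probe A_92_P041889) and por (GRMZM2G073351, probe A_92_P010529). They were chosen by probe name, 4 of the 6834 gene models that could be paired with a probe and 4 of the 42034 transcript probes on the array. Anthers of a Mu-active line, in which Mutator transposons are mobile, were compared with anthers of a Mu-inactive line at lengths of 1.0, 1.5 and 2.0 mm. The plants were grown in the field and no treatment was given. Both lines were hybridised together on every array, one in Cy3 and the other in Cy5, with 4 arrays per length, 12 in all. The labels do not name the background or the age of either line, and the array files name no genome build, so genes are given by model and symbol only.

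A photosynthetic cell catches light in antenna proteins, passes electrons through photosystem II, the cytochrome b6f complex, plastocyanin and photosystem I to ferredoxin, and fixes carbon dioxide with Rubisco. Chlorophyll, which both photosystems need, is made through a light-dependent step in flowering plants, the reduction of protochlorophyllide. The maize anther at these lengths is still enclosed in its floret inside the whorl of leaves around the tassel, so transcripts of this machinery were measured in an organ that grows in little light. The psan1 gene encodes subunit N of photosystem I, which faces the thylakoid lumen where plastocyanin docks. Ssu1 encodes a small subunit of Rubisco. Both pcr1 and por encode protochlorophyllide reductase, the enzyme of the light-dependent step. A further psaN copy (GRMZM2G009048) has probes of its own, the Rubisco small subunit is a gene family, and pcr1 and por encode the same enzyme, so how far related transcripts bind each probe is uncertain.

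The direction of every line difference below rests on the stated dye of each line, Mu-active in Cy3 on arrays 1 and 2 and in Cy5 on arrays 3 and 4 of each length. The sample labels, read by replicate number, would give the opposite dyes. The deposited ratio, titled Mu-active against Mu-inactive, correlated with the ratio computed here at r = 0.991, 0.988 and 0.991 over the spots of 1.0, 1.5 and 2.0 mm. On this basis the direction is likely rather than settled, and with the opposite dyes the names of the lines would change places in every result. The 4 arrays of a length were on 1 slide, so length and slide cannot be told apart. Array numbers name no replicate. The labels list separate RNA for each replicate, and the p-values measure only the spread between these samples. Arrays of the same line and length correlated at r between 0.928 and 0.980 over all transcript probes. Of the 4 MuDR probes, a check of the lines, 0 passed limma's test between lines at each length. At each length 1 had an unadjusted p under 0.05, as had 3719, 4205 and 5157 of all 42034 probes at 1.0, 1.5 and 2.0 mm. At 2.0 mm the MuDR probe was A_92_P012404, annotated to a terminal inverted repeat, which averaged 553 ± 148 in Mu-active anthers and 299 ± 142 in Mu-inactive anthers (SD, n = 4 each; log2 difference 0.95, limma adjusted p = 0.136).

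All 4 transcripts were above background on every array in both lines and none was saturated. A probe counted as ON where it exceeded the mean plus 3 SD of 153 negative control spots in at least 3 of 4 arrays. Values are median spot intensities after loess and quantile normalization, on a linear scale. Where groups of 4 arrays are said below to lie apart, the share of all probes that do so was not counted, and the separation is description only. In whole anthers, fewer cells of a type and less RNA per cell cannot be told apart. In Mu-inactive anthers all 4 transcripts were higher at 2.0 mm than at 1.0 mm, by 9.59-fold for psan1, 6.52-fold for Ssu1, 11.1-fold for pcr1 and 2.29-fold for por. In Mu-active anthers psan1, Ssu1 and pcr1 were higher at 2.0 mm than at 1.0 mm, by 7.62-fold, 4.35-fold and 2.97-fold, and por was 1.84-fold brighter without passing the test.

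**Figure D1:**
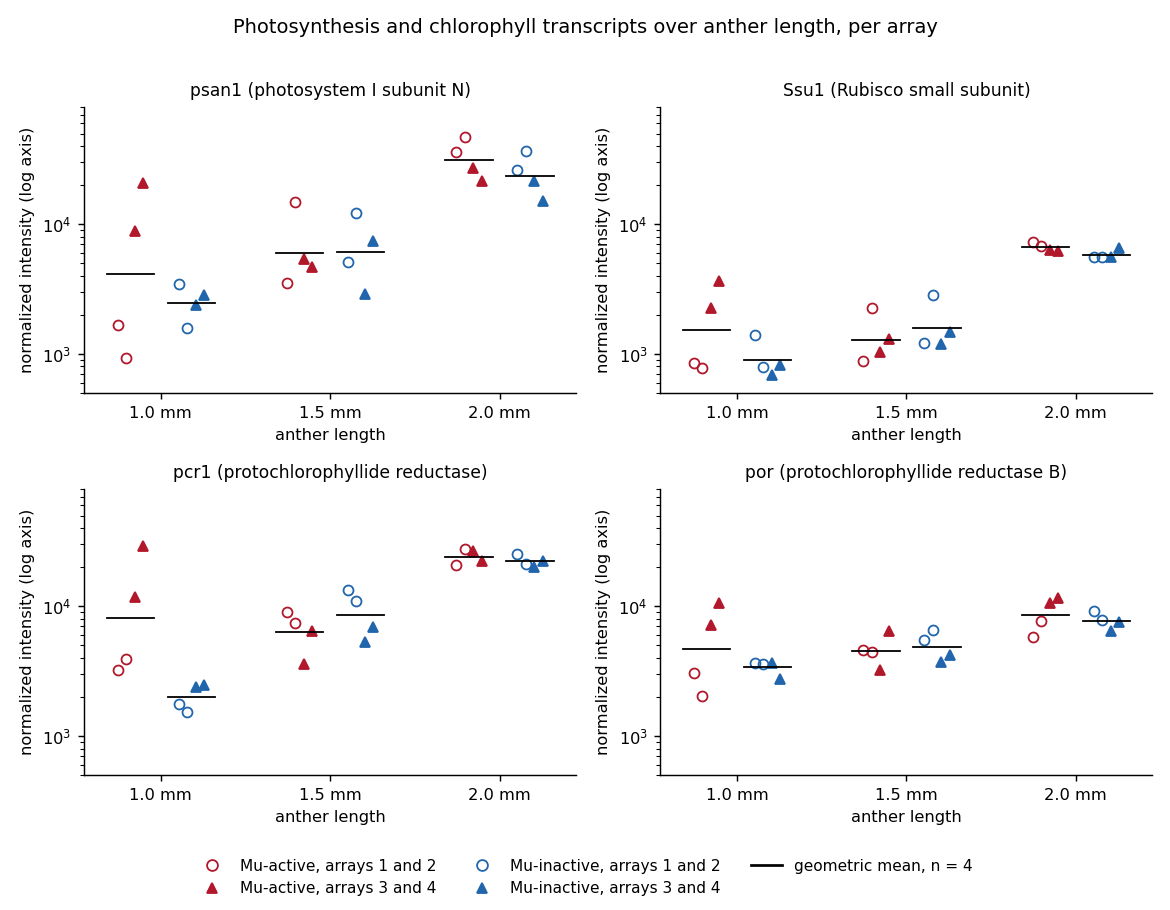
Normalized intensity (log axis) of psan1, Ssu1, pcr1 and por in each array at 1.0, 1.5 and 2.0 mm, Mu-active in red and Mu-inactive in blue, open circles for arrays 1 and 2, filled triangles for arrays 3 and 4, and a bar at the geometric mean of 4 arrays. In Mu-inactive anthers every array of 2.0 mm lies above every array of 1.0 mm for all 4 transcripts, while the Mu-active anthers of 1.0 mm spread widely, between 934 and 20877 for psan1. The share of all probes whose arrays separate in this way was not counted.

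The photosystem I transcript psan1 had a wider spread between samples, on the log2 scale, than the other 3 in each of the 6 groups. At 1.0 mm its intensity on arrays 1 to 4 was 1668, 934, 8927 and 20877 in Mu-active anthers, against 3445, 1583, 2391 and 2826 in Mu-inactive anthers. At 1.5 mm it was 3537, 14841, 5424 and 4642 in Mu-active anthers, against 5087, 12130, 2919 and 7430 in Mu-inactive anthers. At 2.0 mm it was 35908, 47038, 27054 and 21435 in Mu-active anthers, against 25979, 36941, 21655 and 15011 in Mu-inactive anthers. All arrays of 2.0 mm were therefore above all arrays of 1.5 mm and of 1.0 mm in both lines, and at 1.0 mm the Mu-active samples of arrays 3 and 4 stood well above those of arrays 1 and 2. The means were 8102 ± 9249, 7111 ± 5211 and 32859 ± 11173 at 1.0, 1.5 and 2.0 mm in Mu-active anthers (SD, n = 4 each). In Mu-inactive anthers they were 2561 ± 783, 6891 ± 3949 and 24896 ± 9210.

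The Rubisco small subunit transcript Ssu1 rose between 1.5 and 2.0 mm in both lines. At 1.0 mm its intensity was 850, 774, 2243 and 3663 in Mu-active anthers, against 1398, 792, 692 and 823 in Mu-inactive anthers. At 1.5 mm it was 877, 2253, 1025 and 1309 in Mu-active anthers, against 1220, 2834, 1201 and 1475 in Mu-inactive anthers. At 2.0 mm it was 7302, 6827, 6291 and 6200 in Mu-active anthers, against 5615, 5579, 5566 and 6543 in Mu-inactive anthers. The samples of 2.0 mm lay close together in both lines and apart from every sample of the shorter anthers. Means were 1882 ± 1365, 1366 ± 618 and 6655 ± 512 over the 3 lengths in Mu-active anthers, and 926 ± 319, 1682 ± 778 and 5826 ± 479 in Mu-inactive anthers.

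The chlorophyll synthesis transcript pcr1 was the one whose lines differed at 1.0 mm. There its intensity was 3245, 3915, 11857 and 29104 in Mu-active anthers, against 1762, 1527, 2388 and 2467 in Mu-inactive anthers, and the groups did not overlap. At 1.5 mm it was 9066, 7413, 3609 and 6511 in Mu-active anthers, against 13288, 10960, 5296 and 6985 in Mu-inactive anthers. At 2.0 mm it was 20951, 27604, 26698 and 22189 in Mu-active anthers, against 25334, 21096, 20200 and 22555 in Mu-inactive anthers. In Mu-inactive anthers each length lay wholly above the one before it. In Mu-active anthers the range at 1.0 mm reached past that of 2.0 mm because of 1 sample, on array 4. Means were 12030 ± 12036, 6650 ± 2286 and 24361 ± 3283 in Mu-active anthers, and 2036 ± 463, 9132 ± 3649 and 22296 ± 2245 in Mu-inactive anthers.

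The second reductase transcript, por, had the smallest difference of the 4 between 1.0 and 2.0 mm in both lines. At 1.0 mm its intensity was 3040, 2040, 7133 and 10678 in Mu-active anthers, against 3653, 3600, 3629 and 2744 in Mu-inactive anthers. At 1.5 mm it was 4591, 4432, 3227 and 6452 in Mu-active anthers, against 5471, 6558, 3699 and 4243 in Mu-inactive anthers. At 2.0 mm it was 5785, 7700, 10535 and 11612 in Mu-active anthers, against 9251, 7832, 6511 and 7605 in Mu-inactive anthers. The Mu-inactive samples of 2.0 mm all exceeded those of 1.0 mm, while the Mu-active samples of these lengths overlapped. Means were 5723 ± 3971, 4676 ± 1331 and 8908 ± 2657 in Mu-active anthers, and 3406 ± 442, 4993 ± 1280 and 7800 ± 1126 in Mu-inactive anthers. The spot of por on array 1 of 1.5 mm carried an outlier flag and was left out of the fit of line differences.

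The order of the 6 arithmetic group means was nearly the same for all 4 transcripts. For Ssu1, pcr1 and por it ran, low to high, through Mu-inactive 1.0 mm, Mu-active 1.5 mm, Mu-inactive 1.5 mm, Mu-active 1.0 mm, Mu-inactive 2.0 mm and Mu-active 2.0 mm. For psan1 the 2 groups of 1.5 mm changed places. The place of Mu-active 1.0 mm depends on the scale. By the mean of log2 intensity it lay below Mu-inactive 1.5 mm for all 4 transcripts, at 12.01 against 12.56 for psan1, 10.57 against 10.62 for Ssu1, 12.99 against 13.06 for pcr1 and 12.19 against 12.25 for por, and for psan1 also below Mu-active 1.5 mm (12.56). Most neighbours in the order of the arithmetic means overlapped in range. The exceptions in that order were Ssu1 between Mu-active 1.0 mm and Mu-inactive 2.0 mm, and pcr1 between Mu-inactive 1.0 mm and Mu-active 1.5 mm.

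Over the whole span, 2.0 mm against 1.0 mm, all 4 transcripts rose in the Mu-inactive line, with log2 differences of 3.26 ± 0.68 for psan1 (SE; limma adjusted p = 0.00261), 2.71 ± 0.40 for Ssu1 (adjusted p = 0.00017), 3.48 ± 0.45 for pcr1 (adjusted p = 4.2e-05) and 1.19 ± 0.30 for por (adjusted p = 0.0106). Of all 42034 probes, 16.9% passed this test in either direction and 8.25% were higher at 2.0 mm. All 4 passed again when any 1 array was left out, but por did not without the dye term (adjusted p = 0.0532).

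In the Mu-active line 3 of the 4 transcripts passed, where 17% of all probes did and 8.04% were higher at 2.0 mm. The log2 differences were 2.93 ± 0.68 for psan1 (SE; limma adjusted p = 0.00545), 2.12 ± 0.40 for Ssu1 (adjusted p = 0.00126) and 1.57 ± 0.45 for pcr1 (adjusted p = 0.0197). For por the difference was 0.88 ± 0.30 (adjusted p = 0.0534), and it passed without array 4 of 1.0 mm (1.20, adjusted p = 0.00563) or array 3 of 1.5 mm (adjusted p = 0.0326). It also passed with normexp background correction (adjusted p = 0.0478), among probes ON alone (adjusted p = 0.0452) and with the processed signal of the scanner software (1.52, adjusted p = 0.00177). The call of pcr1 was lost without array 1 or 2 of 1.0 mm (adjusted p = 0.0926 and 0.0860) and without array 1 or 2 of 2.0 mm (adjusted p = 0.0515 and 0.0635), and when each line was fitted on its own (adjusted p = 0.108).

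Over the first step, 1.5 mm against 1.0 mm, pcr1 rose in the Mu-inactive line. Its log2 difference was 2.10 ± 0.45 (SE; limma adjusted p = 0.00595), or 4.29-fold, and it was the only one of the 4 to pass, where 11.2% of all probes passed and 4.68% were higher at 1.5 mm. The values for the others were 1.30 for psan1 (adjusted p = 0.235), 0.82 for Ssu1 (adjusted p = 0.204) and 0.53 for por (adjusted p = 0.291). In Mu-active anthers 0 of the 4 passed over this step, where 9.44% of all probes passed. At an unadjusted p under 0.05 the count was also 0, where 10387 of all 42034 probes had such a p. There psan1 had a log2 difference of 0.55 (adjusted p = 0.672), Ssu1 of -0.26 (adjusted p = 0.748), pcr1 of -0.37 (adjusted p = 0.663) and por of -0.04 (adjusted p = 0.958).

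Over the second step, 2.0 mm against 1.5 mm, Ssu1 rose in both lines, by 2.38 ± 0.40 in Mu-active anthers (SE; limma adjusted p = 0.00133) and by 1.89 ± 0.40 in Mu-inactive anthers (adjusted p = 0.00621). In Mu-active anthers psan1 and pcr1 rose as well, by 2.38 ± 0.68 (adjusted p = 0.0365) and 1.94 ± 0.45 (adjusted p = 0.0113), so that 3 of 4 passed where 7.69% of all probes did and 4.18% were higher at 2.0 mm. The value for por was 0.92 ± 0.30 (adjusted p = 0.0725). In Mu-inactive anthers 1 of 4 passed, where 9.93% of all probes did and 4.93% were higher at 2.0 mm, and psan1, pcr1 and por had differences of 1.97, 1.37 and 0.67 (adjusted p = 0.0728, 0.0572 and 0.186). The calls of Ssu1 held with any 1 array left out, at an adjusted p of at most 0.0087 in Mu-active and 0.0288 in Mu-inactive anthers. The other calls of this step turned on single arrays: in Mu-active anthers that of psan1 was lost without array 1, 3 or 4 of 1.5 mm (adjusted p = 0.105, 0.0972 and 0.0871) or array 1, 2 or 3 of 2.0 mm (adjusted p = 0.109, 0.116 and 0.0551), and that of pcr1 without array 3 of 1.5 mm (adjusted p = 0.0530). With each line fitted on its own, the calls of psan1 and pcr1 in Mu-active anthers were lost (adjusted p = 0.148 for psan1 and 0.0895 for pcr1), while psan1, pcr1 and por passed in Mu-inactive anthers (adjusted p = 0.0144, 0.0118 and 0.0102). Calls were gained for por in Mu-active anthers without array 2 or 4 of 1.0 mm (adjusted p = 0.0410 and 0.0304), and in Mu-inactive anthers for psan1 without array 4 of 1.0 mm (adjusted p = 0.0385) and for pcr1 without array 1 or 4 of 1.0 mm (adjusted p = 0.0414 and 0.0128).

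**Figure D2:**
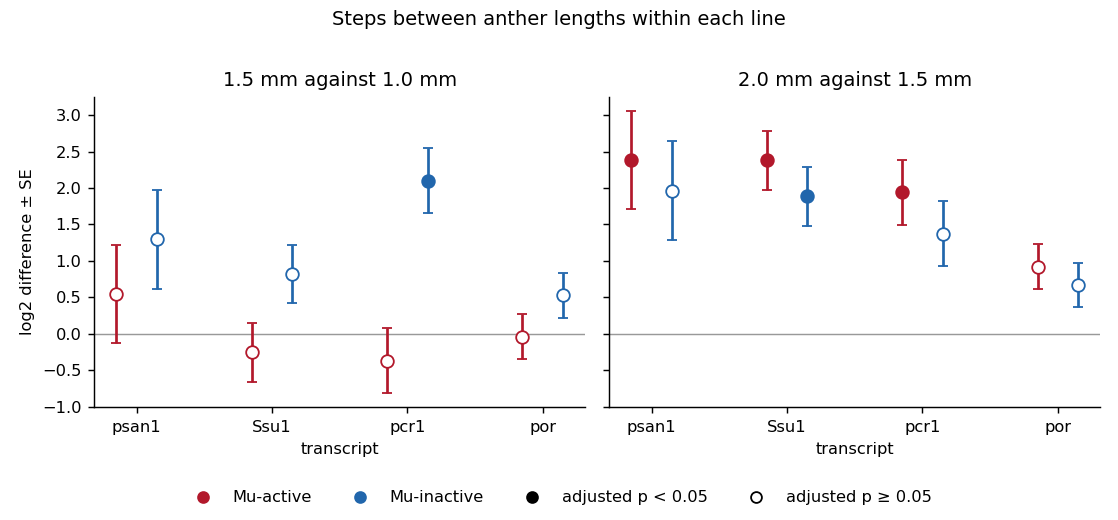
Log2 difference with its standard error for each transcript between 1.5 and 1.0 mm (left) and between 2.0 and 1.5 mm (right), Mu-active in red and Mu-inactive in blue, with filled points where the adjusted p was under 0.05. Over the first step only pcr1 in Mu-inactive anthers is filled (2.10), and over the second Ssu1 is filled in both lines (2.38 in Mu-active and 1.89 in Mu-inactive anthers).

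The comparison of the lines asks whether anthers with mobile Mutator elements differ from anthers without them at the same length. At 1.0 mm pcr1 was 4.08-fold higher in Mu-active anthers, a log2 difference of 2.03 ± 0.28 (SE of the fit over 12 arrays; limma adjusted p = 0.0221). It was the only one of the 4 to pass, where 0.376% of all probes passed and 0.276% were higher in Mu-active anthers. Array by array the log2 ratio of pcr1 was 0.88, 1.36, 2.31 and 3.56, above 0 on 4 of 4 arrays. The fit takes 1 spread and 1 dye term for all 3 lengths. The ratios of pcr1 lay closer together at 1.5 mm (-0.56 to -0.10) and at 2.0 mm (-0.27 to 0.40). The SE and p-value at 1.0 mm therefore do not show the wider spread of the arrays of that length. The call was lost without array 2 (adjusted p = 0.0572) or array 3 of 1.0 mm (adjusted p = 0.0924), and when the lines were compared without the pairing on the array (adjusted p = 0.130).

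The other 3 transcripts had no line difference past the test at 1.0 mm, and their arrays pointed both ways. The log2 ratios of psan1 were -1.05, -0.76, 1.90 and 2.89 on arrays 1 to 4. Those of Ssu1 were -0.72, -0.03, 1.70 and 2.15, and those of por were -0.26, -0.82, 0.97 and 1.96. In all 3 the sign followed the dye orientation, below 0 on arrays 1 and 2 and above 0 on arrays 3 and 4, which also hold different samples, so that dye and sample cannot be told apart. The fitted differences were 0.74 ± 0.48 for psan1 (SE; limma adjusted p = 0.832), 0.77 ± 0.33 for Ssu1 (adjusted p = 0.510) and 0.46 ± 0.24 for por (adjusted p = 0.677).

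**Figure D3:**
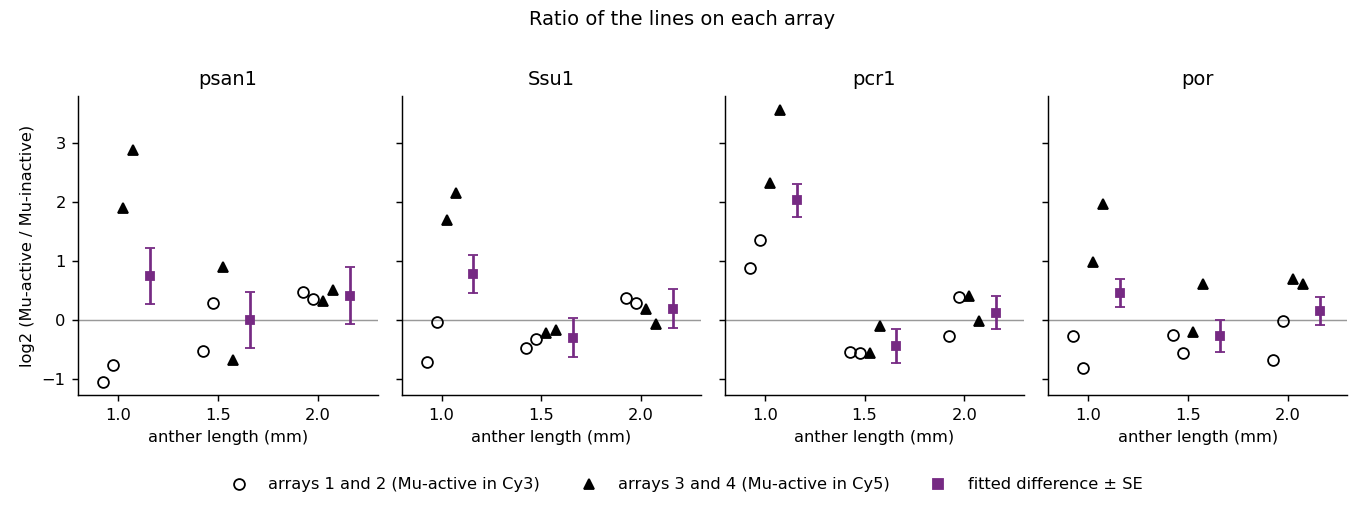
Log2 ratio of Mu-active over Mu-inactive anthers on each array at 1.0, 1.5 and 2.0 mm for the 4 transcripts, with open circles for arrays 1 and 2, filled triangles for arrays 3 and 4, and the fitted difference with its standard error as a square. At 1.0 mm only pcr1 lies above 0 on all 4 arrays (0.88 to 3.56), and at 1.5 and 2.0 mm every ratio of the 4 transcripts lies within 1 of 0.

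At 1.5 mm 0 of the 4 passed limma's test between lines, where 0.471% of all probes passed. At an unadjusted p under 0.05 the count was also 0, where 4205 of all 42034 probes had such a p. The log2 ratio of pcr1 was -0.55, -0.56, -0.55 and -0.10, below 0 on 4 of 4 arrays, with a fitted difference of -0.44 ± 0.28 (SE; limma adjusted p = 0.678). At 2.0 mm 0 passed and 0 had an unadjusted p under 0.05, where 0.866% of all probes passed and 5157 had such a p. The fitted differences at 2.0 mm were 0.41 for psan1, 0.19 for Ssu1, 0.12 for pcr1 and 0.15 for por. At 2.0 mm psan1 was above 0 on 4 of 4 arrays, between 0.32 and 0.51, with adjusted p = 0.807. The ratios of por at 2.0 mm were -0.68, -0.02, 0.69 and 0.61 on arrays 1 to 4, so their sign followed the dye orientation as at 1.0 mm. The change of the pcr1 line difference between 1.0 and 1.5 mm was itself tested: it was -2.47 ± 0.40, with an unadjusted p of 0.000109 and a limma adjusted p of 0.121, and did not pass. Of all probes, 0.00952% passed this test. Between 1.0 and 2.0 mm the change for pcr1 was -1.90 ± 0.40 (adjusted p = 0.155), where 0.0523% of all probes passed, and 0 of the 4 had a change of the line difference that passed limma's test. At an unadjusted p under 0.05, 2 changed between 1.0 and 1.5 mm, Ssu1 (-1.08) and pcr1, and 1 between 1.0 and 2.0 mm, pcr1. Of all 42034 probes, 3553 and 3602 had such a p for these changes.

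For data of a single experimental loop, the study's methods set a log2 difference of 0.58 with a p of at most 0.05, and name no adjustment. Between anther stages the study used a 2-fold cutoff. Here the threshold for a loop was applied with unadjusted p-values to every comparison, also those between lengths. By this threshold 4 of the 4 transcripts were called over the second step and over the whole span in both lines, where 8.17% and 12.7% of all probes were in Mu-active and 8.54% and 12.7% in Mu-inactive anthers. Over the first step it called 0 of 4 in Mu-active and 1 of 4 in Mu-inactive anthers, against 7.63% and 8.29% of all probes. Between lines it called 2 at 1.0 mm, 0 at 1.5 mm and 0 at 2.0 mm, against 2.18%, 1.99% and 2.8% of all probes. A changed line difference was called for 2, 0 and 1 (1.5 against 1.0 mm, 2.0 against 1.5 mm and 2.0 against 1.0 mm), against 2.61%, 1.16% and 3.33% of all probes.

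The split of the Mu-active samples at 1.0 mm reached beyond the 4 transcripts. In Mu-active anthers of 1.0 mm both samples of arrays 3 and 4 exceeded both samples of arrays 1 and 2 for all 4 transcripts, with a median difference of 2.10 on the log2 scale. The same held for 20 of 28 other photosynthesis and chlorophyll probes that were ON (71.4%, median 0.41), against 20.9% of the 33666 probes that were ON on the array. It held for 5 of 5 electron transport probes (median 1.08). In the Mu-inactive samples on the same arrays it held for 1 of the 4 transcripts and 3 of 28 other list probes (10.7%), against 19.5% of probes. The other groups split the opposite way. In Mu-active anthers arrays 1 and 2 exceeded arrays 3 and 4 for 12 and 10 of the 28 at 1.5 and 2.0 mm (42.9% and 35.7%, against 16.5% and 23% of probes). In Mu-inactive anthers they did for 9, 10 and 11 at 1.0, 1.5 and 2.0 mm (32.1%, 35.7% and 39.3%, against 23.1%, 20.3% and 22.1%). The raw signal differed between the arrays of 1.0 mm in both lines. In Mu-active samples the median spot was 2.38 and 3.15 times the mean of the negative controls on arrays 3 and 4, against 1.61 and 1.49 times on arrays 1 and 2. In Mu-inactive samples it was 1.65 and 1.76 times on arrays 3 and 4, against 1.89 and 2.27 times on arrays 1 and 2. In each line the samples labelled with Cy5 thus had the higher raw signal at 1.0 mm, and the part of this in the split was not tested.

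Several values above change with the samples kept. Arrays 3 and 4, or arrays 1 and 2, of 1.0 mm were left out, a choice made after seeing the data. Each choice leaves 1 dye orientation at 1.0 mm, with the dye term set by the other lengths. A p-value after such a choice is no test, so only log2 differences are given here. Calls and p-values listed further below for these choices are no test either. Without arrays 3 and 4 the line difference of pcr1 at 1.0 mm was 1.21 and those of psan1, Ssu1 and por turned to -0.84, -0.40 and -0.09. The step between 1.0 and 1.5 mm in Mu-active anthers was then 2.24 for psan1, 0.66 for Ssu1, 0.78 for pcr1 and 0.66 for por. For por the Mu-active difference between 1.0 and 2.0 mm was then 1.58. With arrays 1 and 2 left out instead, the line difference of Ssu1 at 1.0 mm was 1.95. The Mu-active difference between 1.0 and 2.0 mm was then 1.23 for psan1 and 0.43 for pcr1. The Mu-active step between 1.0 and 1.5 mm was then -1.15 for psan1 and -1.51 for pcr1.

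Beyond the 4 transcripts, 30 probes were placed by their annotation in lists of photosystem I, photosystem II, electron transport, antenna, Calvin-Benson cycle, C4, chlorophyll synthesis and chlorophyll breakdown genes. At 2.0 mm against 1.0 mm, 16 of the 30 were higher and 0 lower in Mu-active anthers, and 15 were higher and 1 lower in Mu-inactive anthers. Their median log2 difference was 0.40 in Mu-active and 0.37 in Mu-inactive anthers, beside -0.01 for all probes in both lines. Of all probes 8.04% were higher and 8.96% lower at 2.0 mm in Mu-active anthers, and 8.25% higher and 8.7% lower in Mu-inactive anthers. These shares also stand beside the counts of the single lists and markers below over this span. At 1.5 mm against 1.0 mm the 30 had 2 higher and 2 lower in Mu-active anthers, and 8 higher and 3 lower in Mu-inactive anthers, where 4% of all probes were higher and 5.45% lower in Mu-active anthers, and 4.68% higher and 6.54% lower in Mu-inactive anthers. At 2.0 mm against 1.5 mm 9 were higher and 0 lower in both lines. Of all probes 4.18% were higher and 3.5% lower over this step in Mu-active anthers, and 4.93% higher and 5% lower in Mu-inactive anthers.

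The electron transport list moved as a whole, with 5 of 5 probes higher at 2.0 mm than at 1.0 mm in each line. Plastocyanin (GRMZM2G071450), which carries electrons to photosystem I, had intensities of 28263, 21184, 13485 and 17435 at 2.0 mm in Mu-active anthers, against 1266, 1680, 5434 and 7783 at 1.0 mm. In Mu-inactive anthers it had 19332, 14687, 15881 and 15994 at 2.0 mm, against 4066, 1415, 2493 and 1633 at 1.0 mm. The groups did not overlap, and the log2 differences were 2.65 in Mu-active anthers (limma adjusted p = 0.00151) and 2.90 in Mu-inactive anthers (adjusted p = 0.000787). The ferredoxin fdx2, which takes up electrons from photosystem I, differed by 2.81 in Mu-active and 2.43 in Mu-inactive anthers, and the ferredoxin fdx5 by 2.19 and 3.21. The Rieske iron-sulphur protein of the cytochrome b6f complex (GRMZM2G038365) differed by 2.53 in Mu-active and 2.69 in Mu-inactive anthers. It was also higher in Mu-active anthers at 1.5 mm, by 0.93 (adjusted p = 0.0321). The chloroplast ATP synthase gene atpc1 differed by 1.62 in Mu-active and 1.90 in Mu-inactive anthers.

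In photosystem I, 5 of 6 probes were higher at 2.0 mm than at 1.0 mm in each line, psan1 among them. The subunit PsaF, at which plastocyanin docks, averaged 9632 ± 2147 at 2.0 mm against 3445 ± 3270 at 1.0 mm in Mu-active anthers (SD, n = 4 each), and 7954 ± 2446 against 1325 ± 366 in Mu-inactive anthers. Its log2 differences were 1.93 in Mu-active (limma adjusted p = 0.00657) and 2.57 in Mu-inactive anthers (adjusted p = 0.000805). PSA3, an assembly factor of photosystem I, differed by 1.26 in Mu-active and 2.13 in Mu-inactive anthers, and a subunit V probe by 0.41 and 0.35. Of the second psaN gene, the probe A_92_P002911 rose by 0.38 in Mu-active and 0.39 in Mu-inactive anthers. It averaged between 88.3 and 116 over the 6 groups, close to the ON threshold of 78.7 to 90.4 per sample, so the size of its rise cannot be set against that of psan1, and its probe A_92_P014054 stayed below the ON threshold throughout.

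All 3 photosystem II probes were higher at 2.0 mm than at 1.0 mm in each line. They were oxygen-evolving enhancer protein 3-1, with 1.40 in Mu-active and 1.42 in Mu-inactive anthers, a further enhancer protein 3 probe with 0.98 and 0.73, and a photosystem II family protein with 0.99 and 1.31. Of 7 antenna probes, 2 were higher and 0 lower in Mu-active anthers, and 2 higher and 1 lower in Mu-inactive anthers. Chlorophyll a-b binding protein 8 rose by 0.94 in Mu-active and 1.46 in Mu-inactive anthers, and the lhcb probe A_92_P019649 had 0.67 in Mu-active anthers, which did not pass, and rose by 1.18 in Mu-inactive anthers. The antenna gene cab-m1 rose by 0.50 in Mu-active anthers and had 0.12 in Mu-inactive anthers, which did not pass, and at 2.0 mm it was higher in Mu-active anthers by 0.35 (limma adjusted p = 0.0236). The minor antenna gene cp29 fell by 0.26 in Mu-inactive anthers, close to the ON threshold.

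Among 5 Rubisco and Calvin-Benson probes, 3 were higher at 2.0 mm than at 1.0 mm in Mu-active anthers and 2 in Mu-inactive anthers. The gene gpb1, for the chloroplast glyceraldehyde-3-phosphate dehydrogenase, rose by 1.81 in Mu-active and 2.39 in Mu-inactive anthers. Rubisco activase, rca1, rose by 0.38 in Mu-active anthers and had 0.30 in Mu-inactive anthers. The Rubisco large subunit is encoded in the chloroplast. Its probe had 27784, 44028, 7593 and 8485 at 2.0 mm in Mu-active anthers, against 8531, 5183, 17320 and 40151 at 1.0 mm, with a log2 difference of 0.34 in Mu-active and 0.28 in Mu-inactive anthers that did not pass. The C4 list, for the carbon pump of the maize leaf, had 0 of 5 probes past limma's test between 1.0 and 2.0 mm in either line. At an unadjusted p under 0.05 it had 1 in Mu-active and 0 in Mu-inactive anthers, where 12339 and 12364 of all 42034 probes had such a p. Over the single steps 1 of 5 was lower at 1.5 against 1.0 mm and 2 of 5 were higher at 2.0 against 1.5 mm, in each line. Of its 5 probes 4 were ON in a group. Its pyruvate phosphate dikinase probes A_92_P034776 and A_92_P020114 had log2 differences of 0.16 and -0.06 in Mu-active anthers and 0.10 and -0.05 in Mu-inactive anthers over the whole span. Both are also C4 leaf markers, which at 1.0 mm averaged at most 168 in Mu-active and 160 in Mu-inactive anthers. The ON threshold was 78.7 to 90.4 per sample, so the size of their changes cannot be set against that of brighter probes. The single steps that passed were those of A_92_P020114, with -0.42 and then 0.36 in Mu-active and -0.56 and then 0.51 in Mu-inactive anthers, and the second step of A_92_P034776, with 0.31 in Mu-active and 0.26 in Mu-inactive anthers. Chlorophyllase, taken as the breakdown list, had -0.74 in Mu-active and -0.80 in Mu-inactive anthers and did not pass. Of 14 probes for other chloroplast proteins, counted apart, 2 were higher and 1 lower in Mu-active anthers, and 0 higher and 2 lower in Mu-inactive anthers. Between lines, the 30 list probes had 0 past limma's test at 1.0 mm (8 at an unadjusted p under 0.05) and 1 at each of 1.5 and 2.0 mm, the Rieske protein and cab-m1. A changed line difference was called for 0 of the 30 over each span (2, 3 and 4 at an unadjusted p under 0.05 for 1.5 against 1.0 mm, 2.0 against 1.5 mm and 2.0 against 1.0 mm). Of all 42034 probes, 3719 had an unadjusted p under 0.05 between lines at 1.0 mm, and 3553, 2828 and 3602 for these changes.

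**Figure D4:**
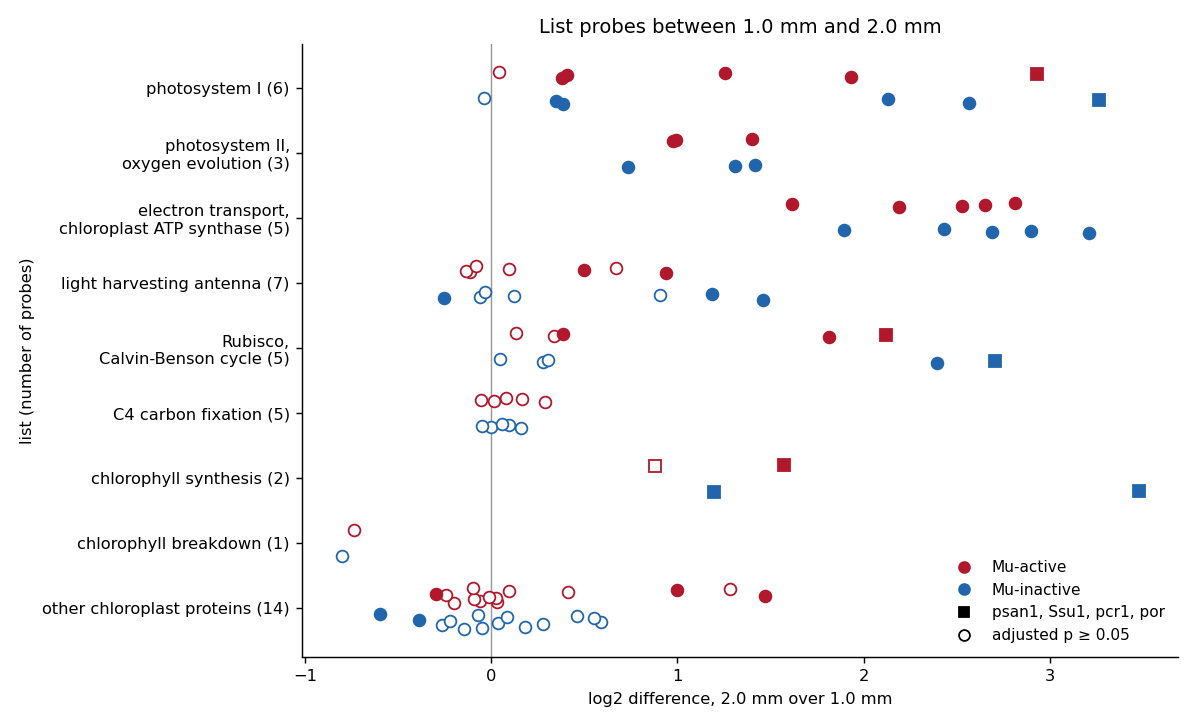
Log2 difference of 2.0 mm over 1.0 mm for each probe of the lists, Mu-active in red above Mu-inactive in blue, with filled symbols at adjusted p under 0.05 and squares for psan1, Ssu1, pcr1 and por. All 5 electron transport probes lie above 1.6 in both lines, while the C4 list and the 14 other chloroplast proteins centre on 0. Of the 5 C4 probes 4 were ON in a group. The dikinase probes among them averaged at most 168 at 1.0 mm, against an ON threshold of 78.7 to 90.4 per sample.

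Markers of other tissues were read on the same arrays. The C4 leaf markers were 6 probes, whose summed intensity at 2.0 mm was between 1445 and 3720 in Mu-active and between 2179 and 5352 in Mu-inactive anthers, against 721 to 898 and 671 to 794 at 1.0 mm. That gain came from 1 probe, A_92_P000766, annotated as an alpha-class carbonic anhydrase and not the class of the C4 pathway, which averaged 2240 at 2.0 mm against 168 at 1.0 mm in Mu-active anthers, and 2672 against 106 in Mu-inactive anthers. Of the other 5 C4 leaf probes 0 passed limma's test between 1.0 and 2.0 mm, and 1 in Mu-active and 0 in Mu-inactive anthers had an unadjusted p under 0.05, while over the single steps 1 fell and 2 rose in each line, the dikinase probes above. Of 6 pollen markers, 1 was higher at 2.0 mm in each line, the arabinogalactan protein BAN102, by 2.85 in Mu-active and 3.14 in Mu-inactive anthers. A further 1 was lower in Mu-active and 2 in Mu-inactive anthers: mgs1 (A_92_P041755) fell by 0.44 in Mu-active and 0.42 in Mu-inactive anthers, and A_92_P022663 had -0.12 in Mu-active anthers, which did not pass, and fell by 0.33 in Mu-inactive anthers. Of 2 meiotic markers, am1 was ON in every group and fell by 0.75 in Mu-active and 0.72 in Mu-inactive anthers over the same span. At 2.0 mm am1 averaged 110 in Mu-active and 119 in Mu-inactive anthers, where the ON threshold was 78.7 to 90.4 per sample. The other, A_92_P009128, did not pass. Its mean log2 intensity at 1.0 and 2.0 mm was 6.52 and 6.48 in Mu-active and 6.56 and 6.53 in Mu-inactive anthers, close to the ON threshold. Of the 6 tapetum and anther wall markers 0 passed limma's test in either line, and 1 in each had an unadjusted p under 0.05, with summed intensities between 660 and 1142. Of all 42034 probes, 12339 in Mu-active and 12364 in Mu-inactive anthers had such a p between 1.0 and 2.0 mm. The tapetum and wall probes A_92_P001353, A_92_P006329, A_92_P011450 and A_92_P014313 averaged between 94.2 and 144 over the 6 groups, close to the ON threshold. The absence of calls therefore does not show that these transcripts held level. The part of these markers in the course of psan1, Ssu1, pcr1 and por was not tested.

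The 4 transcripts moved together over the 24 samples. Pearson's r of log2 intensity was between 0.837 and 0.943 for the 6 pairs over 24 values, which share arrays, slides and the course over length. Among 24521 probes ON in every group, the 2 most like psan1 were A_92_P004643 (r = 0.967) and A_92_P003142 (GRMZM2G016677, r = 0.958). For Ssu1 they were A_92_P040802 (r = 0.969) and A_92_P022423 (GRMZM2G181251, r = 0.963). For pcr1 they were A_92_P034529 (r = 0.935) and A_92_P021255 (GRMZM2G113349, r = 0.930), and for por A_92_P019403 (r = 0.901) and A_92_P012734 (GRMZM2G022837, r = 0.901).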

How the data were processed

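RNA of staged anthers of both lines was amplified, labelled with Cy3 or Cy5 and hybridised to 12 Agilent arrays of 43451 spots. The deposited scanner output, 1 file for each array from Agilent Feature Extraction 9.5.3.1, gives every spot's median foreground intensity in Cy3 and Cy5 on a linear scale, not normalized. The same deposited files hold a log10 ratio of Cy5 over Cy3 and a processed signal, an intensity that the scanner software had corrected for background and dye, and both served as alternatives. A deposited table of log2 ratios per length, made by the authors with scale and centring unstated, was used as a check on direction alone. The labels give dyes by replicate number without tying replicates to arrays, so an array number is only a name. The members and lists were chosen with earlier results of these data known.

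Normalization used limma 3.58.1 (R 4.3.3). Loess was applied to each array, then the 24 channels were set to common quantiles, and no background was subtracted. Line differences are log2 ratios of Mu-active over Mu-inactive within each array, fitted over 12 arrays with a coefficient per length and a dye term, and outlier-flagged spots were left out. Differences between lengths come from limma's separate-channel fit of 24 channels with a dye term (correlation within a spot 0.451), which takes no missing values and so kept the flagged spots. The p-values were adjusted over 42034 probes by Benjamini-Hochberg, called at 0.05. The scripts were tested on simulated data.

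Probes were paired with gene models through feature numbers in the study's supplementary tables (7745 probes, 6834 models) and with symbols through a RefSeq table of assembly Zm-B73-REFERENCE-NAM-5.0 (5319 of the models). Lists were matched by words in the annotation, and 13 probes were then dropped and 12 added by their annotation. Named were the 4 members, other probes of the same protein, the 3 brightest and the most changed probes of each list, the 2 probes most like each member, and the MuDR probes. Alternatives covered background, scaling, filters, dye term, pairing, the threshold of the methods and each array left out. For arrays, their number limits the precision.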

Additional observations from a re-analysis of the deposited data

Results flagged for a closer look

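Of 36 groups of 4 arrays of psan1, Ssu1, pcr1 and por, 24 of intensities and 12 of line ratios, 5 held 1 array far from the other 3. For normal values in independent groups, chance sets apart about 1 group in 20. These groups share samples and the intensities are on a linear scale, so that rate is only a rough guide. In Mu-active anthers of 1.5 mm, psan1 had 14841 on array 2, above 3537 to 5424 on the others. Ssu1 had 2834 on the same array in Mu-inactive anthers of 1.5 mm, above 1201 to 1475 on the others. In Mu-inactive anthers of 2.0 mm Ssu1 had 6543 on array 4, above 5566 to 5615. In Mu-inactive anthers of 1.0 mm por had 2744 on array 4, below 3600 to 3653. The log2 ratio of pcr1 at 1.5 mm was -0.10 on array 4 and between -0.56 and -0.55 on the others.

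The line difference of pcr1 changed between 1.0 and 1.5 mm by -2.47 on the log2 scale, with a ratio above 0 on 4 of 4 arrays at 1.0 mm and below 0 on 4 of 4 at 1.5 mm. limma's test of this change had an adjusted p of 0.121, and between 0.0351 and 0.476 over the alternatives, where it passed only with arrays 1 and 2 of 1.0 mm left out. That choice was made after seeing the data and is no test of the change.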

How the results depend on the processing

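Across the 4 transcripts and 12 comparisons, 361 of 384 values kept their direction and their side of the threshold under the alternatives listed at the outset, and 541 of 576 did with 1 array left out. The causes of the changes below were not tested.

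Called members moved under these alternatives. The threshold of the methods (log2 difference over 0.58 at an unadjusted p under 0.05) gave 2 at 1.0 mm between lines (main 1), 2 and 1 for the changed line difference at 1.5 and at 2.0 mm against 1.0 mm (main 0), and 4 in Mu-inactive anthers at 2.0 mm against 1.5 mm (main 1). Of all probes it called 2.18%, 2.61%, 3.33% and 8.54% in these comparisons. For that last step, probes ON and Aquantile scaling gave 2 each, the processed signal 3 and each line on its own 4. Of all 42034 probes, 2073 were called higher and 2103 lower over this step in the main fit. The counts were 2036 and 1938 with Aquantile, 2951 and 2016 with the processed signal, and 2180 and 2140 with each line on its own. Of the 33666 probes ON they were 2146 and 2201. The fit of each line on its own gave 1 in Mu-active anthers at 2.0 against 1.5 mm (main 3) and, like the processed signal, 2 in Mu-inactive anthers at 1.5 against 1.0 mm (main 1). For the Mu-active step it called 1233 of all probes higher and 1026 lower (main 1758 and 1473). For the Mu-inactive step it called 2180 higher and 2672 lower, and the processed signal 2479 and 4966 (main 1969 and 2748).

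Without the replicate block, which is the pairing of both lines on an array, 0 members were called at 1.0 mm (pcr1 adjusted p = 0.130), and 73, 191 and 8 probes were called at 1.0 mm, at 2.0 mm and for the change between 1.0 and 1.5 mm, where the paired fit called 158, 364 and 4. Array numbers correlated across lengths between -0.138 and 0.244, so they share only a number, and a replicate block on them changed no call of a member.

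Counts of called probes moved as follows. Loess only gave 361, 89 and 122 between lines at 1.0, 1.5 and 2.0 mm (main 158, 198 and 364) and 8 for the change at 1.5 mm. The scanner ratio gave 76 at 1.0 mm, and 7 and 2 for the changes at 1.5 against 1.0 mm (main 4) and 2.0 against 1.5 mm (main 0, with 2828 at an unadjusted p under 0.05). Normexp gave 8 and no dye term 7 for the first of these. The threshold of the methods gave 917, 837 and 1176 between lines, and 1099, 486 and 1399 for the changes. The processed signal gave 8100 and 11303 in Mu-active anthers at 1.5 and 2.0 mm against 1.0 mm (main 3970 and 7146), and 7445 and 10934 in Mu-inactive anthers (main 4717 and 7124). It moved the median of all probes by 0.12 and 0.18 at 2.0 against 1.5 mm. Each line on its own gave 2376 in Mu-active anthers at 1.5 against 1.0 mm.

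Values that turned sign were psan1 between lines at 1.5 mm, 0.031 by loess only and 0.026 by the scanner ratio (main -0.00), and with the processed signal in Mu-active anthers at 1.5 against 1.0 mm Ssu1 (0.13), pcr1 (0.28) and por (0.45).

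With arrays 3 and 4 of 1.0 mm left out, chosen after seeing the data, line differences at 1.0 mm were -0.84 for psan1, -0.40 for Ssu1 and -0.087 for por, with 0 members called. Their changes were 0.84 and 1.26 for psan1, 0.094 and 0.59 for Ssu1 at 1.5 and 2.0 against 1.0 mm, and 0.24 for por at 2.0 mm. The Mu-active step at 1.5 against 1.0 mm was 0.66 for Ssu1, 0.78 for pcr1 and 0.66 for por, with 1 member called, and 3 members were called in Mu-inactive anthers at 2.0 against 1.5 mm. Probes called were 66 and 60 for the changes, and 1810 and 3987 in Mu-inactive anthers. With arrays 1 and 2 left out, also chosen after seeing the data, members called were 2 between lines, 2 and 1 for the changes, 1 and 1 in Mu-active anthers, and 3 in Mu-inactive anthers at 2.0 against 1.5 mm, psan1 was -1.15 at the Mu-active step, and probes called were 33 for the change at 1.5 mm, 1344 and 3578 in Mu-active, and 2126 and 4105 in Mu-inactive anthers. Each choice left 1 dye orientation at 1.0 mm, so these calls of members are no test.

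With each array left out in turn, probes called ranged between lines over 49 to 178, 27 to 211 and 39 to 393, for the changes over 3 to 15, 0 to 2 and 4 to 29 (1.5 against 1.0, 2.0 against 1.5 and 2.0 against 1.0 mm), in Mu-active anthers over 2169 to 4719, 2097 to 3189 and 5272 to 7213, and in Mu-inactive anthers over 2636 to 4611, 2904 to 4187 and 5304 to 7217. Values that turned sign ranged between lines at 1.5 mm over -0.34 to 0.47 for psan1 and -0.55 to 0.020 for por, and at 2.0 mm over -0.016 to 0.43 for Ssu1, -0.11 to 0.31 for pcr1 and -0.034 to 0.23 for por. The changed line difference ranged over -0.056 to 0.75 for psan1 at 2.0 against 1.5 mm, and at 2.0 against 1.0 mm over -0.78 to 0.25 for psan1 and -0.55 to 0.0067 for por. The Mu-active step at 1.5 against 1.0 mm ranged over -0.089 to 1.26 for psan1, -0.60 to 0.12 for Ssu1, -0.77 to 0.21 for pcr1 and -0.35 to 0.28 for por. Members called ranged over 0 to 1 between lines at 1.0 mm, over 1 to 4 and 2 to 4 in Mu-active anthers at 2.0 mm against 1.5 and 1.0 mm, and over 1 to 3 in Mu-inactive anthers at 2.0 against 1.5 mm.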
